A study of Mus musculus with 4 samples.

Results

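Members of the interleukin-1 (IL-1) pathway were followed across the immune cells of mouse melanomas. These 10 genes, chosen by name from the 32285 genes of the expression table, were the ligands Il1b, Il1a and Il18, the antagonist Il1rn, the receptors Il1r1, Il1r2 and Il1rap, and the inflammasome genes Nlrp3, Casp1 and Casp4. The cells were live CD45+ cells, sorted to a stated purity above 98% from tumors of the 20967 melanoma line. The line is of C57BL/6 origin and was derived on a background with the Nras+LSL-G12D and Tyr::CreERT2+/o alleles, the second of which places Cre under the Tyr promoter of pigment cells. The tumors of both groups grew in wild type C57BL/6 mice. The control group held 5 tumors treated with a plain cream, and the GC group held 5 tumors treated with the topical glucocorticoid clobetasol propionate. Each tumor carried its own antibody hashtag and served as the replicate. The age of the mice was not given in the labels.

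IL-1α and IL-1β signal through the receptor encoded by Il1r1 together with the accessory chain encoded by Il1rap. Il1rn encodes a receptor antagonist that occupies the same receptor without signaling, and Il1r2 encodes a decoy receptor that binds IL-1 without passing on a signal. IL-1β and IL-18 are made as inactive precursors, and caspase-1, activated on inflammasomes such as the one built on NLRP3, cleaves them to their active forms. Caspase-4, often called caspase-11 in the mouse, senses cytosolic bacterial lipopolysaccharide. In tumors, IL-1 is known as a product of neutrophils and other myeloid cells, and glucocorticoids are known to lower the transcription of IL-1 genes and to raise Il1r2. Transcript levels say nothing about cleavage or release of the proteins.

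Il1b (ENSMUSG00000027398) lies on the minus strand at chr2:129364570-129371139 of GRCm38, and Il1a (ENSMUSG00000027399) beside it on the same strand at chr2:129299610-129309972. Il1rn (ENSMUSG00000026981) lies on the plus strand at chr2:24336853-24351494, and Il1r2 (ENSMUSG00000026073) on the plus strand at chr1:40074079-40125231. All 10 members are protein coding. Other annotated genes overlap 6 of them, among them Il1bos on the strand opposite Il1b, Gm14023 on the strand opposite Il1a, and Bco2 and Tex12 on the strand opposite Il18. On the same strand, Gm38070 overlaps Il1r1 and Gm37347 overlaps Il1r2. Reads in introns were counted, so part of the reads where genes share a strand cannot be assigned with certainty.

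Upstream sequences are printed for some of the members called in a GC comparison. Which of these were called differed between classes. All 10 members matched the RefSeq promoter table of build GRCm38.p6, and the 250 bases before the start site are given 5′ to 3′ on the strand of the gene. The lines hold Il1b (chr2:129371140-129371389, minus), Il1a (chr2:129309973-129310222, minus), Il1rn (chr2:24336610-24336859, plus), Il1r2 (chr1:40085843-40086092, plus) and Nlrp3 (chr11:59541319-59541568, plus). RefSeq gives both Nlrp3 and Il1rn other starts downstream, and those windows are not shown. Capitals mark a match to a searched motif on either strand.
Il1b: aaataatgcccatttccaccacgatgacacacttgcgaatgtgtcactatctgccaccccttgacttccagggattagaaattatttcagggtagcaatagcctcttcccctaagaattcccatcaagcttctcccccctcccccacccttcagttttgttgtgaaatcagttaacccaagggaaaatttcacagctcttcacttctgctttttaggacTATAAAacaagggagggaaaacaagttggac
Il1a: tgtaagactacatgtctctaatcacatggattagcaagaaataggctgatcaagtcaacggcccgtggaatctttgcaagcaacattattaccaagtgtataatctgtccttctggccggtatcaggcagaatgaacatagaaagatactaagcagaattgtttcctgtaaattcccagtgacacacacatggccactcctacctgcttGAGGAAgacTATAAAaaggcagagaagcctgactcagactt
Il1rn: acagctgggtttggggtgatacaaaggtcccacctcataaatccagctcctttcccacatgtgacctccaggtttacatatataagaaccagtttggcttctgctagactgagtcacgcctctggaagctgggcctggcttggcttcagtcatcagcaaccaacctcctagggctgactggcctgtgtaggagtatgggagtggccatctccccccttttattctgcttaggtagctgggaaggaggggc
Il1r2: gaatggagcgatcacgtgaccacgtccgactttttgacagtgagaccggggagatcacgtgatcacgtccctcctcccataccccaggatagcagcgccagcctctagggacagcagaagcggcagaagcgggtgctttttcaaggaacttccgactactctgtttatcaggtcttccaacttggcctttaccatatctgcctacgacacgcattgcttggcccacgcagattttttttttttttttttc
Nlrp3: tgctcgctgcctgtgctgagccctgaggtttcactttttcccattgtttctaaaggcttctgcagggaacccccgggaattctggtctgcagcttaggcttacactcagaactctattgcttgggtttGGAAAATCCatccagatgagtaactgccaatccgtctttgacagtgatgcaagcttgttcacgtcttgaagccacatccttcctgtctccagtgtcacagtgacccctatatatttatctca
The TATA box TATAAA stood at position -31 in Il1b and -32 in Il1a, counted back from the start site. This motif was found in 12.4% of all 32851 promoters. Il1a also held the PU.1 core GAGGAA at -41, a motif of 23.3% of promoters. The Nlrp3 window held the NF-kB motif GGANTTTCC, read on the opposite strand, at -122, and 1.07% of promoters held that motif. No member window held the glucocorticoid response element core ACANNNTGT, present in 5.84% of promoters, or the C/EBP motif TTGCNNNAA, present in 8.29%. The matches did not overlap each other. A match describes letters in this window and is neither a binding site nor a cause.

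The control tumors gave 3803 cells with 32034696 unique molecular identifiers (UMIs, counts of distinct transcript molecules) and the GC tumors 305 cells with 3216052 UMIs. The control and GC cells were loaded in separate 10x channels, 17100 and 3500 live cells respectively, so treatment and channel cannot be told apart. No cell barcode was shared between the channels. Per tumor, 347 to 1250 control cells and 18 to 111 GC cells were kept. GC tumors with at least 10 cells numbered 2 for neutrophils, 2 for tumor-associated macrophages (TAMs), 1 for monocytes, 1 for eosinophils, 4 for lymphocytes and 0 for dendritic cells (DCs). Among control cells, each class's marker list was highest in that class, and melanoma markers were at most 0.298 UMIs per 10000 in a tumor. Ly6g was at 0 in GC neutrophils and Epx at 0 in eosinophils of both groups. Levels are mean UMIs per 10000 UMIs of a cell. These are counts of transcript ends, and levels of different genes were not compared.

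Neutrophils were the class richest in Il1b transcripts. In the control tumors, the level of Il1b in neutrophils was 160.4, 175, 178, 209.8 and 186 UMIs per 10000 in replicates 1 to 5. In TAMs it was 40.8, 38.5, 42.1, 41.6 and 40.8. The lowest neutrophil value was above every TAM value. Mean levels were 182 ± 18.2 in neutrophils, 40.7 ± 1.36 in TAMs, 30.2 ± 7.53 in monocytes, 28.8 ± 7.22 in DCs, 15.4 ± 4.12 in eosinophils and 0.681 ± 0.0577 in lymphocytes (SD, n = 5). TAMs, monocytes and DCs came next and overlapped in their values. The classes were defined by clustering on all genes, so differences between them are given as a description without a test.

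Il1a, the IL-1 ligand that can signal without cleavage, was low in every class. Its mean was highest in eosinophils, at 3.15 ± 0.717 UMIs per 10000 (SD, n = 5), with 2.83, 2.74, 4.23, 2.44 and 3.50 in the 5 control tumors. Neutrophils followed with 0.709, 1.65, 3.20, 0.313 and 1.29, which overlapped the eosinophil range. TAMs held 0.822 ± 0.188, monocytes 0.682 ± 0.422, DCs 0.0793 ± 0.0788 and lymphocytes 0.013 ± 0.00861. Il18, the third ligand, was highest in monocytes at 0.481 ± 0.131, followed by neutrophils at 0.325 ± 0.199, which overlapped. The TAM mean of Il18 was 0.140 ± 0.0471, and in eosinophils and lymphocytes Il18 was at or near 0.

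The antagonist Il1rn was distributed differently from Il1b. Control eosinophils held 57.4, 65.1, 61.4, 47.5 and 69.4 UMIs per 10000 of Il1rn, all above every value of the other classes. Means in the other myeloid classes were 10.9 ± 1.58 in neutrophils, 9.71 ± 1.32 in TAMs, 8.51 ± 1.63 in monocytes and 3.25 ± 0.435 in DCs (SD, n = 5). Neutrophils, TAMs and monocytes overlapped in pairs. Lymphocytes held 0.470 ± 0.0653. Within monocytes, Il1rn was 13 in the cluster Monocytes 1 and 1.16 in Monocytes 2, as UMIs pooled over the control tumors.

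Receptor transcripts separated by class as well. The decoy receptor Il1r2 reached 55.9, 71.5, 61.4, 59.2 and 70.2 UMIs per 10000 in control neutrophils, above all other classes. DCs followed at 17.2 ± 2.35 (SD, n = 5), and within them pooled Il1r2 was 34.7 in the cluster DC 2 and 4.43 in DC 1. TAMs held 10.8 ± 1.40, eosinophils 7.75 ± 1.43, monocytes 4.35 ± 1.03 and lymphocytes 1.43 ± 0.123. Il1rap, the accessory chain, was 14.7 ± 2.37 in neutrophils and at most 1.45 ± 0.322, in monocytes, elsewhere. The signaling receptor Il1r1 was scarce, with means from 0 in eosinophils to 0.180 ± 0.0631 in lymphocytes. γδ T cells were the source of most of the lymphocyte signal, with 5.04 UMIs per 10000 (95% Poisson interval 4.27 to 5.90) pooled over 43 control cells.

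The sensor Nlrp3 was highest in neutrophils, at 12.7, 15.3, 15.5, 21.3 and 11.4 UMIs per 10000 in the 5 control tumors. TAMs at 2.53 ± 0.316 and monocytes at 2.12 ± 0.181 followed (SD, n = 5), and these classes overlapped. Casp1, the caspase that cleaves pro-IL-1β, was low throughout and highest in monocytes at 0.527 ± 0.0847. In neutrophils Casp1 was only 0.0615 ± 0.0594, and 4 UMIs of Casp1 were counted over the 162 control neutrophils. Casp4 was spread most evenly, from 3.08 ± 1.11 in neutrophils and 2.71 ± 0.477 in monocytes to 1.18 ± 0.53 in eosinophils.

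**Figure D1:**
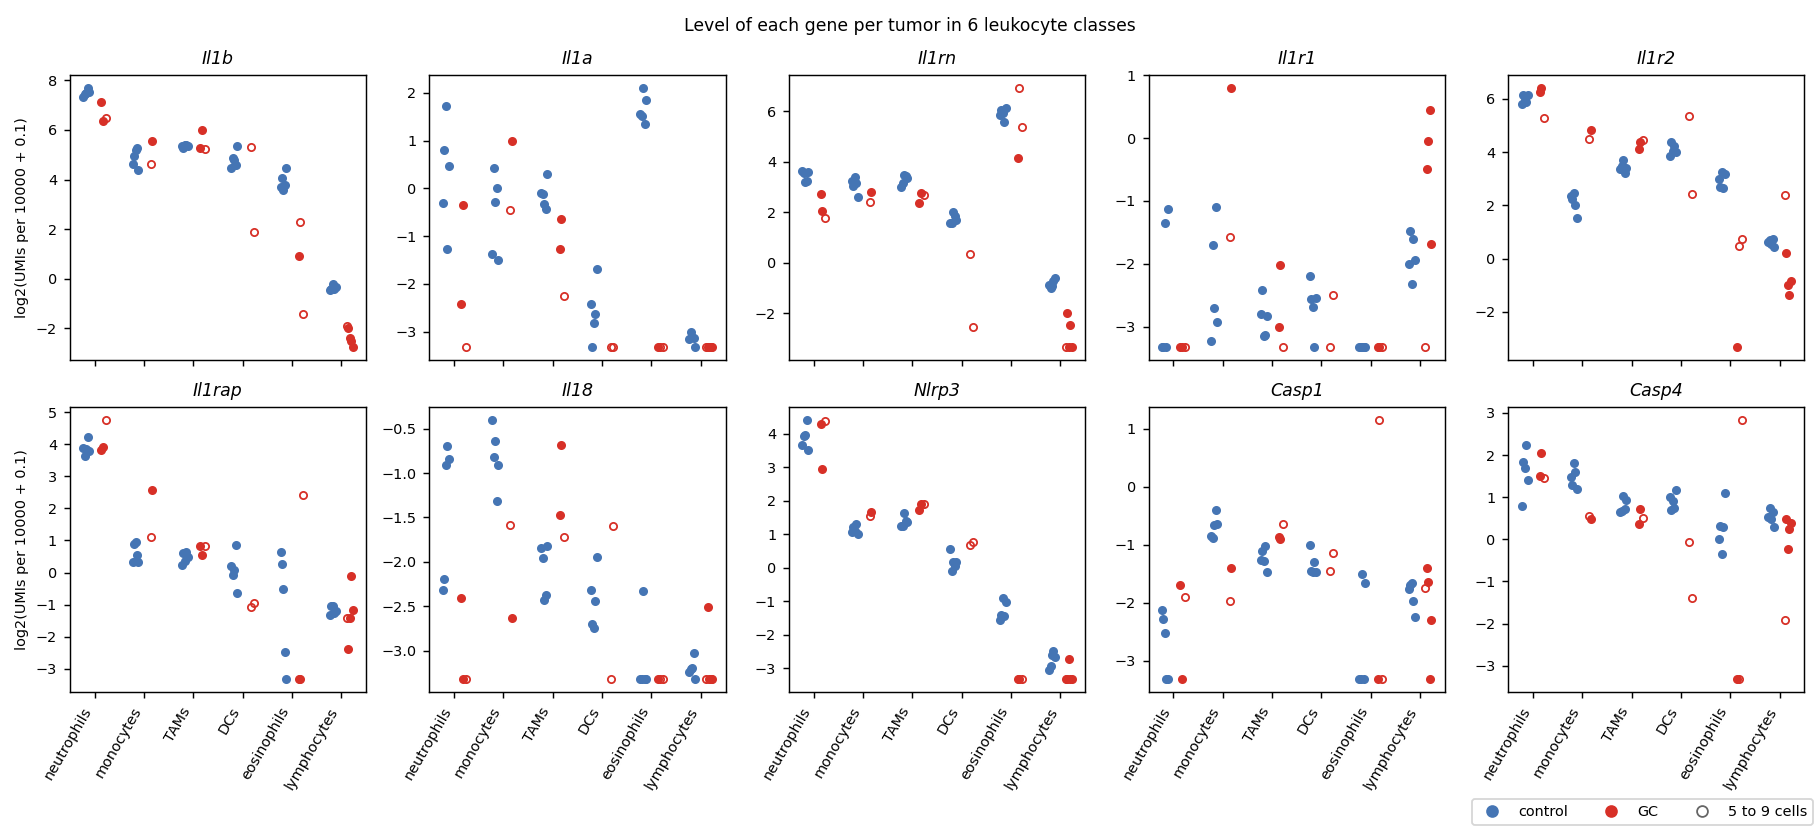
Levels of the 10 members in the 6 classes, on the log2(UMIs per 10000 + 0.1) scale, with 1 point per tumor (blue control, red GC, open symbols for tumors with 5 to 9 cells of the class). Il1b, Il1r2, Il1rap and Nlrp3 were highest in neutrophils, Il1rn in eosinophils, and GC lymphocytes lay below control lymphocytes for Il1b and Il1rn.

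Although TAMs held less Il1b per cell than neutrophils, they were the larger source in control tumors. TAMs gave 49.1% ± 9.80 of the Il1b UMIs of a control tumor, monocytes 20.9% ± 10.4, neutrophils 17.2% ± 7.49 and DCs 11.0% ± 3.23 (SD, n = 5). In GC tumors the share was 35.7% ± 16.5 from neutrophils and 33.4% ± 20.7 from TAMs (SD, n = 5), and the spread between tumors was wide. The mean share of neutrophils among cells was 5.01% ± 2.49 in control and 13.4% ± 6.85 in GC tumors. Il1rn came mainly from TAMs in both groups, at 47.9% ± 7.43 in control (SD, n = 5) and 43.0% ± 7.38 in the 4 GC tumors with enough Il1rn UMIs. Neutrophils gave 18.4% ± 8.76 of Il1r2 UMIs in control and 30.2% ± 10.7 in GC tumors, and 29.3% ± 13 and 43.7% ± 16.0 of Il1rap UMIs. No test was made on these shares.

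**Figure D2:**
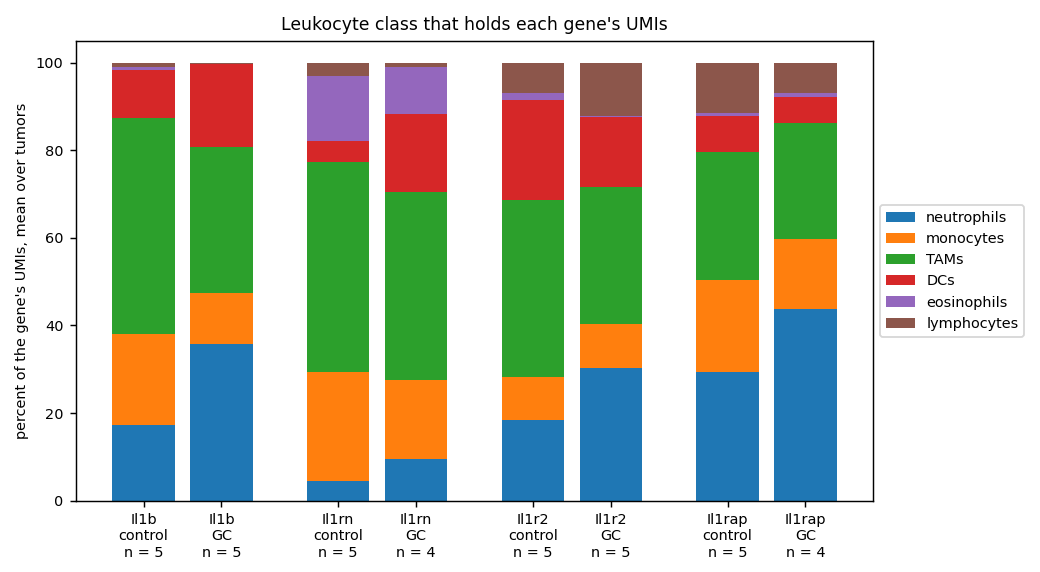
Mean percent of a tumor's UMIs that came from each class, for Il1b, Il1rn, Il1r2 and Il1rap, in control and GC tumors (5 control tumors throughout, and 5, 4, 5 and 4 GC tumors in that order). TAMs were the largest source of Il1b in control tumors at 49.1%, against 33.4% in GC tumors, where neutrophils gave 35.7%.

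The first comparison asked what GC did to these transcripts over all CD45+ cells of a tumor. Only Il1a passed the test. Il1a was 0.564, 0.616, 0.959, 0.607 and 0.880 UMIs per 10000 in control replicates 1 to 5, and 0, 0.160, 0.333, 0 and 0.0224 in GC replicates 1 to 5. Every GC tumor was below every control tumor. GC replicates 1 and 4, both at 0, were tumors of 18 and 22 cells. The size of the log2 difference therefore depends on the 0.1 added before the log. The log2 difference was -2.26 ± 0.39 (SE, limma adjusted p = 0.00803), and edgeR on UMI sums gave -1.15 with an adjusted p of 0.139. Of the 9 members that passed the filter on low values, 0 rose and 1 fell, against 6.15% of all genes tested. The median log2 difference was -0.33 for these members and -0.11 for all genes tested, so each value is read against that shift.

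Il1rn was lower in most GC tumors but missed the threshold. It was 9.72, 9.03, 13.1, 10.8 and 13.9 in the control tumors and 3.48, 5.85, 12.0, 0.745 and 5.42 in the GC tumors. GC replicate 3 lay inside the control range and the other 4 below it. The log2 difference was -1.45 ± 0.54 (SE, limma adjusted p = 0.138), and an exact two-sided permutation test of Il1rn alone gave p = 0.0317, unadjusted over 10 members tested. Without any 1 control tumor that p no longer passed.

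Il1b did not pass over all CD45+ cells, and its GC values surrounded those of the control. Il1b was 20.8, 21.6, 19.4, 30.3 and 31.1 in control and 9.60, 49.8, 26.1, 6.85 and 14.1 in GC tumors. The log2 difference was -0.55 ± 0.44 (SE, limma adjusted p = 0.514). The remaining members gave 0.49 ± 0.36 for Il1r2, 0.75 ± 0.57 for Il1rap, 0.65 ± 0.52 for Il1r1, 0.26 ± 0.57 for Nlrp3, -0.35 ± 0.31 for Casp1 and -0.33 ± 0.17 for Casp4, none past the threshold. Il1rap rose by 1.41 (limma adjusted p = 0.00356) once GC replicate 1, a tumor of 18 cells, was left out. Il18 stayed under the filter, and its exact permutation p was 0.0476, unadjusted.

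Since class makeup differed between tumors, the level over all cells was set beside the level that each tumor's own class makeup would give at control class means. For Il1b the GC tumors averaged 21.3 UMIs per 10000 against 35.5 from class makeup (24.3 to 62.8 by tumor). The observed level was below the makeup level in 5 of 5 GC tumors, by log2 ratios from -1.98 to -0.33. The furthest below were GC replicates 1 (-1.56) and 4 (-1.98), tumors of 18 and 22 cells with 2 neutrophils each. GC replicates 2, 3 and 5, with more cells, had -0.33, -0.41 and -0.79. The mean log2 ratio was -1.01 in GC and 0.01 in control tumors, with an exact two-sided permutation p of 0.00794, the smallest that 5 against 5 tumors allow. The same p was reached by Il1a at -2.26 and Il18 at -0.46, each below in 5 of 5 tumors. Il18 was under the filter on low values, with makeup levels of 0.0655 to 0.186 in GC tumors. Il1a was at 0 in GC replicates 1 and 4. The size of the Il1a and Il18 ratios therefore depends on the 0.1 added to both terms. GC TAMs held 27 Il18 UMIs, at a level above that of control TAMs. Il1rn averaged -1.28, below in 4 of 5 (exact p = 0.0635), and Casp4 -0.38, below in 4 of 5 (exact p = 0.0476). Il1r2 at -0.11 and Il1rap at 0.02 had exact permutation p of 0.738 and 0.952. These p are unadjusted over 10 members. The makeup level was computed for the members only, so no share over all genes stands beside these counts.

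**Figure D3:**
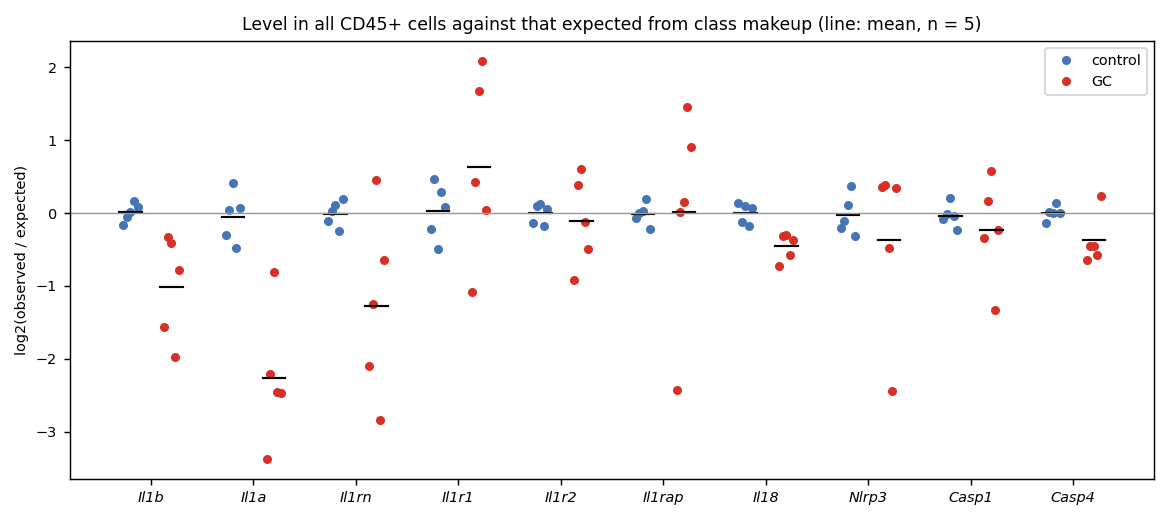
Log2 ratio of the observed level over all CD45+ cells to the level given by the tumor's class makeup at control class means, with 1 point per tumor (blue control, red GC). All 5 GC tumors lay below 0 for Il1b, Il1a and Il18, and Il1r2 and Il1rap lay on both sides.

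Within neutrophils, the agonist Il1b and the antagonist Il1rn were both lower after GC. Il1b was 139 and 81.6 UMIs per 10000 in GC replicates 2 and 3, which held 19 and 14 neutrophils, against 160.4 to 209.8 in the 5 control tumors. Il1rn was 6.46 and 4.03 against 9.12 to 12.4. Both GC values of each gene lay below all control values. The log2 differences were -0.76 ± 0.16 for Il1b (SE, limma adjusted p = 0.0095) and -1.07 ± 0.24 for Il1rn (limma adjusted p = 0.0123). With edgeR the adjusted p was 0.0526 for Il1b and 0.0245 for Il1rn. Both calls rested on GC replicate 3, since without it Il1b was -0.38 (adjusted p = 0.203) and Il1rn -0.73 (adjusted p = 0.2). GC replicate 5, with 7 neutrophils, had 89.9 of Il1b and 3.31 of Il1rn, also under the control values.

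Of the 8 members tested in neutrophils 0 rose and 2 fell, and 4.83% of all genes tested were called. With at least 5 cells per tumor, which admitted GC replicate 5, Il1b fell by 0.85 (limma adjusted p = 0.00408) and Il1rn by 1.27 (limma adjusted p = 0.006), where 4.20% of all genes were called. The decoy receptor Il1r2 was 77.5 and 86.1 in GC against 55.9 to 71.5 in control, a log2 difference of 0.37 ± 0.14 that missed the threshold (limma adjusted p = 0.169). Il1r2 was 39.2 in GC replicate 5, under the control range. Il1rap differed by -0.01 ± 0.20, Nlrp3 by -0.28 ± 0.31, Casp4 by 0.18 ± 0.36, Il1a by -1.67 ± 0.71 and Il18 by -1.47 ± 0.73, none past the threshold. Il1r1 and Casp1 were too low to test. GC neutrophils had more UMIs per cell than control neutrophils, with medians of 5881.5 and 4220.5. Markers of other classes also moved in these cells. The TAM markers summed to 1.38 to 1.87 in GC and 2.35 to 3.31 in control neutrophils, with C1qb, C1qc and Trem2 at 0 in GC. The eosinophil markers summed to 13.3 to 14.9 and 7.18 to 9.10, with Alox15, Prg2 and Epx at 0 in both groups. A fit without neutrophils that held 2 or more C1q UMIs called 2 of 8 members, where 207 of 4395 genes were called. The part of the marker shifts in the neutrophil differences was not otherwise tested.

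In TAMs, Il1r2, Il18 and Nlrp3 rose and Il1rn and Il1a fell, by the limma fit. Il1r2 was 10.3, 11.1, 13, 9.23 and 10.5 UMIs per 10000 in control replicates 1 to 5 and 17.3 and 20.7 in GC replicates 2 and 3, which held 17 and 16 TAMs. The groups did not overlap, and GC replicate 5, with 7 TAMs, held 21.9. Il1r2 rose by 0.81 ± 0.13 on the log2 scale (SE, limma adjusted p = 0.00227, edgeR 8.07e-05). Of the 9 members tested 3 rose and 2 fell, while 21.2% of all genes were called in TAMs. Among those that rose, Il18 had passed the filter on low values only through GC. The median log2 difference was 0.29 over these members and -0.12 over all genes tested.

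The antagonist Il1rn was 7.92, 8.82, 11.1, 10.7 and 10.1 in control TAMs and 5.08 and 6.76 in GC TAMs, again without overlap. It fell by 0.71 ± 0.15 (SE, limma adjusted p = 0.00859), and edgeR gave an adjusted p of 0.056. Il1a fell by 0.82 ± 0.23 (limma adjusted p = 0.0265, edgeR 0.186), from 0.636 to 1.13 in control to 0.313 and 0.542 in GC. This Il1a call was lost in 8 alternatives, among them those without control replicate 1 (-0.81), control replicate 2 (-0.82) or GC replicate 2 (-0.50). Il1b itself was 38.4 and 64.3 in GC TAMs against 38.5 to 42.1 in control. The GC values fell on either side of the narrow control range, and the difference of 0.29 ± 0.16 missed the threshold (limma adjusted p = 0.215). Without GC replicate 2 it was 0.66 (limma adjusted p = 0.000353), so the value hung on 1 tumor.

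Il18 was 0.179, 0.159, 0.0861, 0.0925 and 0.183 in control TAMs and 0.261 and 0.521 in GC TAMs, which lay above. It rose by 1.00 ± 0.28 (SE, limma adjusted p = 0.0262, edgeR 0.034). The control mean of 0.140 was under the filter on low values of 0.2, so Il18 entered the test only through its GC values. Without GC replicate 3 it fell under the filter and was not tested. The GC value rested on 27 UMIs over all 43 GC TAMs, and the call was lost in 4 alternatives. These were the fits with at least 5 cells per tumor and 3 GC tumors (0.79, limma adjusted p = 0.0867), without a filter on low values (0.0553), and without control replicate 3 (0.92) or control replicate 4 (0.93). Nlrp3 was 2.28, 2.27, 3.05, 2.55 and 2.51 in control and 3.24 and 3.69 in GC, also without overlap, and rose by 0.44 ± 0.14 (limma adjusted p = 0.0428, edgeR 0.0151). The Nlrp3 call was lost in 6 alternatives, 5 of which left out GC replicate 3 (0.35) or 1 of control replicates 1, 2, 4 and 5 (0.41 to 0.45). Casp1 at 0.35 ± 0.18, Casp4 at -0.26 ± 0.16 and Il1rap at 0.23 ± 0.16 missed the threshold. The summed TAM markers were 57.3 to 78.0 in GC and 49.9 to 70.3 in control TAMs, and the monocyte markers in the same cells 69.1 to 104.7 and 49.5 to 61.5. Whether the shift in monocyte markers had a part in these differences was not tested.

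**Figure D4:**
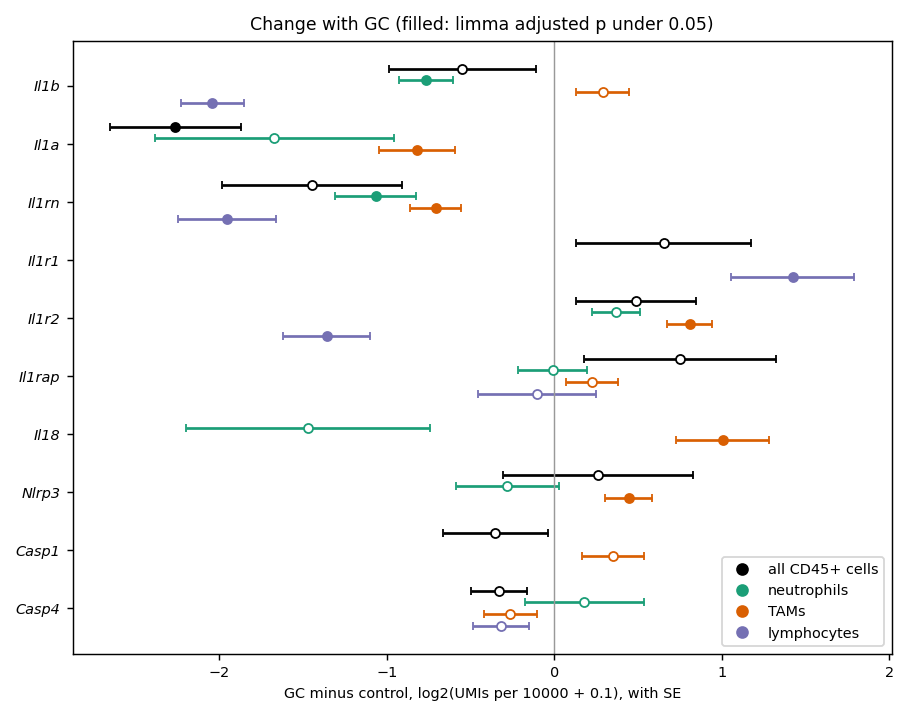
Log2 difference between GC and control for each member, with its SE, in all CD45+ cells, neutrophils, TAMs and lymphocytes. Filled points passed the limma threshold of 0.05. Il1rn lay below 0 in all 4, and Il1r2 was above 0 in TAMs and below 0 in lymphocytes.

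Monocytes had a single GC tumor with enough cells, replicate 3 with 10 monocytes, so the fit took it to vary as the control tumors did. In that tumor the receptors stood high. Il1r2 was 28.3 UMIs per 10000 against 5.05, 4.65, 5.35, 3.93 and 2.76 in control replicates 1 to 5, a log2 difference of 2.71 ± 0.32 (SE, limma adjusted p = 0.00107, edgeR 0.00106). Il1rap was 5.79 against 1.16 to 1.83, a difference of 1.95 ± 0.28 (limma adjusted p = 0.00228, edgeR 0.00141). Il1r1 was 1.65 against 0.00631 to 0.369, a difference of 3.14 ± 0.72 in limma and 3.62 in edgeR. Its control mean of 0.134 was under the filter on low values of 0.2, so Il1r1 entered the fit only through this GC tumor. The GC value was above every control value for all 3 receptor genes, and also for Il1b, Il1a and Nlrp3. It was below every control value for Il18, Casp1 and Casp4, and only Il1rn overlapped. A value outside the control range was thus not particular to the receptors, and the share of all genes with such a value was not computed. The same tumor stood apart in its markers. Monocyte markers summed to 144.9 against 66.5 to 82.9 in control, neutrophil markers to 4.75 against 1.41 to 2.99 and eosinophil markers to 4.83 against 2.30 to 2.86. Of the 8 neutrophil markers 5 were at 0 in GC monocytes, S100a9, Retnlg, Mmp9, Ly6g and G0s2, and of the 7 eosinophil markers 1 had UMIs. The part of these marker levels in the monocyte differences was not tested.

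Il18 and Casp4 were lower in that tumor. Il18 was 0.0613 against 0.657, 0.467, 0.542, 0.302 and 0.434, a difference of -1.82 ± 0.35 (SE, limma adjusted p = 0.00697, edgeR 0.148). Casp4 was 1.30 against 2.18 to 3.39, a difference of -0.99 ± 0.25 (limma adjusted p = 0.0228, edgeR 0.162), and the call was lost without control replicate 4 (-0.95). Il1b was 47.5 against 20.9 to 38.8 and did not pass, at 0.69 ± 0.32, nor did Il1rn at -0.29 ± 0.27. Il1a, which fell over all CD45+ cells, was 1.88 here against 0.254 to 1.25, above every control value. Its difference of 1.53 ± 0.66 did not pass either, and all GC monocytes together held 38 Il1a UMIs. In GC replicate 2, with 8 monocytes, Il1a was 0.627, within the control range. Of the 10 members tested 3 rose and 2 fell, with 23.9% of all genes called. Among the members counted as risen, Il1r1 had entered the fit only through the GC tumor. The median over all genes was -0.18.

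With at least 5 monocytes per tumor, GC replicate 2 with 8 cells joined, and Il1r2 was 22.5 there. Il1r2 then rose by 2.54 ± 0.25 (SE, limma adjusted p = 0.000812) and Il1rap by 1.22 ± 0.36 (limma adjusted p = 0.0492), while Il18, Casp4 and Casp1 fell by 1.29, 0.95 and 1.00. In that fit 15.4% of all genes were called. Il1r1 was then 1.94 ± 0.72 and not called (limma adjusted p = 0.0973). Within the cluster Monocytes 1, pooled Il1r2 was 6.62 in control (95% Poisson interval 6.36 to 6.88) and 26.5 in GC (24.7 to 28.4), over 311 and 18 cells. The intervals cover counting error only.

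Eosinophils must be read with their label in view. Mast cell and basophil markers (Kit, Cpa3, Mcpt4, Mcpt8 and Fcer1a) summed to 45.6 UMIs per 10000 in the GC tumor with enough eosinophils, against 0 to 1.28 in control tumors. Of these genes 4 of 5 had UMIs in GC, with Mcpt8 at 0. The markers sat in 4 of 32 GC cells and 6 of 478 control cells, and those 4 cells held 17487 of the 40043 UMIs of GC eosinophils. Eosinophil markers summed to 39.2 in the GC tumor and 28.2 to 34.6 in control tumors, with Epx at 0 in both. Neutrophil markers summed to 21.7 in GC and 68.2 to 131 in control eosinophils, with S100a8, Csf3r, Cxcr2 and Ly6g at 0 in GC.

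The ligands Il1b and Il1a were lower in GC eosinophils, where few UMIs were counted. Median depth was 873.5 UMIs per cell in control and 721 in GC eosinophils. Il1b rested on 606 UMIs in control and 6 in GC eosinophils, and Il1r2 on 373 and 3. The values per GC tumor below thus come from very few molecules. Il1b was 13, 16.5, 11.7, 13.7 and 22.1 in control replicates 1 to 5 and 1.81 in GC replicate 2, which held 10 cells. The 2 GC tumors with 9 and 8 cells had 4.73 and 0.278. All GC values lay under the control values. Il1b fell by 2.98 ± 0.30 with 1 GC tumor and by 3.32 ± 0.65 with 3 GC tumors of at least 5 cells (SE, limma adjusted p = 2.73e-06 and 0.0162). With 1 GC tumor edgeR gave -5.01. That fit sums UMIs over cells, and the 10 cells of GC replicate 2 held 17244 UMIs at a median of 728.5, so deep cells weigh more in it. Il1a was counted 154 times in control eosinophils and 0 times in GC eosinophils. With 3 UMIs over all 40043 GC UMIs as the floor, that is at least 4.51-fold lower for the cluster as labeled. The 40043 UMIs include 17487 from the 4 cells with mast cell or basophil markers. The other 28 GC cells held 22556 UMIs, which gives a higher floor, so 4.51-fold is not a bound for them.

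Il1r2 in eosinophils was 7.76, 6.42, 9.47, 6.24 and 8.85 in control and 0, 1.28 and 1.58 in GC replicates 2, 3 and 5, below all control values. It fell by 3.66 ± 0.80 with 3 GC tumors (SE, limma adjusted p = 0.0205). The edgeR fit with 1 GC tumor gave -9.00, from 0 Il1r2 UMIs in that tumor and with the same weight on deep cells. Il1rn was 17.6, 122 and 41.5 in those tumors against 47.5 to 69.4, so the GC values spread on both sides of the control. Il1rn differed by -1.76 with 1 GC tumor in limma and by -3.40 in edgeR, where deep cells weigh more. With 3 GC tumors it differed by -0.42 (limma adjusted p = 0.637). Casp4, at -3.59 with 1 GC tumor at 0 UMIs (limma adjusted p = 0.000585), was not called by edgeR (0.228) and was -1.54 with 3 GC tumors (limma adjusted p = 0.505). Nlrp3 had 0 UMIs in all GC eosinophils.

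With 1 GC tumor, 7 members were tested in eosinophils, and 0 rose and 5 fell against 42.8% of all genes called, with a median of -0.87 over all genes. With 3 GC tumors 4 fell against 10.0% of all genes. Without the cells that held a mast cell or basophil marker UMI, and at least 5 cells per tumor, the differences were -3.86 for Il1b (limma adjusted p = 0.0321), -3.52 for Il1r2 (0.022), -5.00 for Il1a (0.00504) and -0.29 for Il1rn (0.742). The fitted values of Il1a depend on the pseudocount because GC was at 0. The part of the neutrophil marker difference in these results was not tested.

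No GC tumor had 10 DCs. With at least 5 cells, GC replicates 3 and 5 entered with 5 DCs each. Il1rn was 1.19 and 0.0723 in these tumors against 2.87, 2.87, 3.88, 3.49 and 3.13 in control, below all of them, and fell by 2.82 ± 0.58 (SE, limma adjusted p = 0.0319). Casp4 was 0.856 and 0.282 against 1.52 to 2.15 and fell by 1.63 ± 0.35 (limma adjusted p = 0.0361). Il1b was 39.9 and 3.56 and Il1r2 40.6 and 5.26 in the same tumors, so both genes were above the control mean in one and far below it in the other. Il1rn and Casp4 were the 2 members called, where 2.92% of all genes were, and neither Il1b (limma adjusted p = 0.330) nor Il1r2 (0.869) passed. The DC 1 and DC 2 clusters differ in Il1b and Il1r2, and with 5 cells per tumor their mix was not held fixed.

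In lymphocytes, Il1b and Il1rn were lower after GC. Il1b was 0.630, 0.651, 0.774, 0.652 and 0.698 UMIs per 10000 in control replicates 1 to 5 and 0.152, 0.0933, 0.0776 and 0.0489 in GC replicates 2 to 5. Il1rn was 0.449, 0.401, 0.427, 0.510 and 0.562 in control and 0.156, 0, 0.0800 and 0 in GC. Neither gene overlapped between groups. The log2 differences were -2.04 ± 0.19 for Il1b (SE, limma adjusted p = 7.76e-05, edgeR 7.23e-06) and -1.95 ± 0.29 for Il1rn (limma adjusted p = 0.00138, edgeR 0.000429). Of the 6 members tested 1 rose and 3 fell, with 9.52% of all genes called. The 1 that rose, Il1r1, had passed the filter on low values only through GC.

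The lymphocyte levels of these myeloid genes were small beside those of the other cells. Pooled Il1b in lymphocytes was 1.48% of its level in all other cells in control (95% interval 1.38 to 1.58) and 0.182% in GC (0.0969 to 0.311). The same share was 1.72% and 0.621% for C1qa and 0.556% and 0.117% for S100a8, genes of macrophages and neutrophils. All 8 TAM markers had UMIs in control lymphocytes, with a summed level of 0.718 to 0.938 per tumor, against 0.0755 to 0.300 in GC lymphocytes, where Adgre1 and Trem2 were at 0. Free RNA from lysed cells gives UMIs of this kind in droplets, and its part in the lymphocyte values of Il1b and Il1rn was not tested. A fit without lymphocytes holding a UMI of C1qa, C1qb, C1qc, S100a8 or S100a9 called 3 of 6 members, where 485 of 6222 genes were called. Leaving such cells out does not take free RNA out of the others. At 1000 UMIs per cell, 7.15% of control and 0.690% of GC lymphocytes held an Il1b UMI, against 35.2% and 8.90% before thinning (1791 and 145 cells, median depths 6894 and 9446.5).

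Il1r2 and Il1r1 belonged to particular lymphocyte clusters. Pooled Il1r2 was 3.44 UMIs per 10000 in control regulatory T cells (95% Poisson interval 3.24 to 3.65) and 2.47 in the cluster CD8 2 (2.26 to 2.68), above the 0.207 of the CD4 cluster and the 0.257 of CD8 1. In GC it was 0.954 in regulatory T cells (0.49 to 1.67, 14 cells) and 1.81 in CD8 2 (1.46 to 2.23). Per tumor, Il1r2 was 1.44, 1.54, 1.36, 1.55 and 1.26 in control and 1.04, 0.403, 0.287 and 0.462 in GC lymphocytes, which did not overlap. It fell by 1.36 ± 0.26 (SE, limma adjusted p = 0.00619, edgeR 0.000164). GC replicate 1, with 9 lymphocytes, had 5.10, and with it the difference was -0.73 (limma adjusted p = 0.487). Regulatory T cells were 486 of 1799 control and 14 of 146 GC lymphocytes.

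Il1r1 was 0.150, 0.258, 0.1003, 0.227 and 0.162 in control lymphocytes and 0.608, 0.874, 1.26 and 0.210 in GC replicates 2 to 5. GC replicate 5 lay within the control range and the others above it. The control mean of Il1r1, 0.180, was under the filter of 0.2, so the gene entered the test only through its GC values. Il1r1 rose by 1.42 ± 0.37 (SE, limma adjusted p = 0.0322), which edgeR did not call (adjusted p = 0.129). The call was also lost without GC replicate 3 (1.29), GC replicate 4 (1.13) or any 1 control tumor (1.31 to 1.52). With GC replicate 1, where Il1r1 was at 0 in 9 lymphocytes, the difference was 0.85 (limma adjusted p = 0.439). γδ T cells made up 43 of 1799 control and 11 of 146 GC lymphocytes. Within them pooled Il1r1 was 5.04 (95% Poisson interval 4.27 to 5.90) and 6.20 (4.57 to 8.22), and these intervals overlapped. Set against the level given by each tumor's mix of lymphocyte clusters, the GC tumors had a log2 ratio of 0.29 for Il1r1 (exact permutation p = 0.214), -0.46 for Il1r2 (exact permutation p = 0.611, below in 4 of 5 tumors) and -1.98 for Il1b (exact p = 0.00794, below in 5 of 5 tumors). In the CD4 cluster Il1r1 was 0.863 in GC, from 9 UMIs in 10 cells (0.395 to 1.64), and 0.121 in control (0.0777 to 0.180).

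The GC differences were then compared between classes. Between TAMs and neutrophils 0 of 9 members were called, where 0.353% of all genes were. At an unadjusted limma p under 0.05 there were 2 members, Il1b and Il18, and 945 of all 6513 genes tested. Il1b differed by 1.05 ± 0.43 (SE, limma adjusted p = 0.306) and Il18 by 2.47 ± 0.70 (limma adjusted p = 0.157). Between lymphocytes and neutrophils 0 of 9 were called, where 0.844% of all genes were. At an unadjusted limma p under 0.05 there were 5 members, and 1042 of all 6991 genes tested. Il1b differed by -1.06 ± 0.24 (limma adjusted p = 0.0782). With at least 5 cells that difference was -1.16 (limma adjusted p = 0.0442). Between eosinophils and neutrophils 3 of 8 were called, where 13.4% of all genes were, from 1 GC tumor. These were Il1r2 at -6.57 ± 0.66, Il1b at -2.60 ± 0.68 and Casp4 at -3.50 ± 0.86, and the first and the third rest on 0 UMIs in the GC tumor, so their size is set by the pseudocount. With at least 5 cells and 3 GC tumors the differences were -3.67, -2.47 and -1.62, and 0 were called. An unadjusted limma p under 0.05 was found for 4 of 9 members there, and for 1280 of all 6136 genes tested. A change called in one class and not in another is therefore not shown to differ between TAMs and neutrophils.

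The balance of antagonist to agonist was read as the log2 ratio of Il1rn to Il1b UMIs within a tumor. Over all CD45+ cells the ratio was -2.12, -2.26, -1.85, -2.29 and -2.26 in control and -4.37, -3.43, -3.06, -2.57 and -2.81 in GC replicates 1 to 5. All GC ratios lay below all control ratios, by -1.09 on average (exact two-sided permutation p = 0.00794, 0.0317 adjusted over 4 ratios). The difference was -0.90 with exact p = 0.0952 when mean levels per cell were used in place of summed UMIs. Class makeup moved with this ratio. At control class means the makeup of each tumor alone gave a GC difference of -0.65 in the ratio (exact permutation p = 0.0635), from makeup levels of 10.5 for Il1rn and 35.5 for Il1b in GC and 11.3 and 24.3 in control tumors. Relative to class makeup the ratio differed by -0.25 (exact permutation p = 0.484), with GC tumors from -0.92 to 0.87. In TAMs the ratio differed by -0.82 (exact permutation p = 0.0476, the smallest that 5 against 2 tumors allow, adjusted 0.0952) and in neutrophils by -0.44 (exact p = 0.238, adjusted 0.317). The ratio of Il1r2 to Il1r1 differed by -0.27 (exact permutation p = 0.794).

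Shares of cells with a UMI were compared after each cell was thinned to 1000 UMIs. Il1b was seen in 98.7% of control neutrophils (exact binomial 95% interval 95.4 to 99.8) and 84.1% of GC neutrophils (69.9 to 93.4), against 98.8% and 86.4% before thinning. Il1r2 was seen in 40.9% of control TAMs (37.2 to 44.5) and 69.8% of GC TAMs (53.9 to 82.8), against 71.8% and 90.7% unthinned. Lymphocytes, which should lack most Il1b, held an Il1b UMI in 7.15% and 0.690%. The TAM and neutrophil shares were far above those. In TAMs and monocytes the Il1b shares were lower in GC, at 74.4% against 83.7% and 61.9% against 73.5%, while the GC mean levels of Il1b were not, so no order was read from these shares. Thinning left out 8 control neutrophils, 1 control TAM and no GC cell of either class, and the intervals treat cells as independent and cover counting error only.

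Over the 16 clusters with at least 20 control cells, the genes with levels most like Il1b were Mcemp1 (Pearson r 0.992), Tnfaip2 (0.979), Il13ra1 (0.977), Spi1 (0.961) and Gabarap (0.958), out of 6430 genes. For Il1rn they were Tgm2 (0.955), Stxbp2 (0.945), Basp1, Ston2 and Flot1 (0.929), and for Il18 Tlr2 (0.948), Ubtd1, Gm46224, Sh2b2 and Sirpb1b (0.940). For Il1r2 they were Cd80 (0.886), Smim3 (0.881), Ccrl2 (0.870), Upp1 (0.865) and Il1b itself (0.863). The clusters share libraries and were built on these genes, so the correlations are descriptions.

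The rest of the pathway was covered by a list of 39 genes of other IL-1 family ligands, receptors, inflammasome parts and signaling proteins. Over all CD45+ cells 26 of these passed the filter, and 1 rose and 3 fell, where 6.15% of all genes were called. Txnip, which encodes a thioredoxin-binding protein that can bind NLRP3, rose by 1.25 ± 0.19, while Mefv, Nlrp1b and Casp8 fell by 1.34, 1.27 and 0.76. Mefv and Nlrp1b encode inflammasome sensors, and Casp8 a caspase of death receptor signaling. In neutrophils 1 of 23 tested genes rose, Txnip at 1.30 ± 0.29, and 0 fell, a share near the 4.83% of all genes. In lymphocytes Txnip and Irak2, a kinase of IL-1 receptor signaling, rose by 0.94 and 0.58, and Il1rl1, the IL-33 receptor, fell by 2.67, as 3 of 19 tested where 9.52% of all genes were called.

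In TAMs 2 of 26 tested genes rose and 6 fell, where 21.2% of all genes were called. Pycard, the adaptor ASC that joins NLRP3 to caspase-1, rose by 0.84 ± 0.21, and Irak2 by 0.47 ± 0.13. The genes that fell were Irak4 (-1.08), Nlrc4 (-0.91), Tab2 (-0.77), Nek7 (-0.70), Naip2 (-0.51) and Irak1 (-0.50). Irak4, Irak1 and Tab2 act downstream of the IL-1 receptor, Nlrc4 and Naip2 act in inflammasomes that sense bacterial proteins, and Nek7 binds NLRP3. In the lone GC tumor for monocytes Pycard was also higher, at 1.13 ± 0.23, and 7 genes were lower, from Nlrp1b at -1.44 to Mefv at -1.06, where 23.9% of all genes were called. In eosinophils, with 1 GC tumor of 10 cells, 4 rose and 4 fell of 22, where 42.8% of all genes were called. The furthest were Ninj1, which encodes a plasma membrane rupture protein, at -3.74, and Il18rap at -2.73.

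Genes known to be raised by glucocorticoids marked the treatment. Over all CD45+ cells 5 of 6 rose, Klf9 by 2.83 ± 0.32, Fkbp5 by 2.52 ± 0.22, Zbtb16 by 1.83 ± 0.44, Tsc22d3 by 1.53 ± 0.16 and Dusp1 by 0.93 ± 0.18. In TAMs the same count rose, with Fkbp5 at 3.04 and Tsc22d3 at 2.28, and in neutrophils 4 rose, with Klf9 at 3.35 and Zbtb16 at 2.89. These differences were larger than those of Il1b, Il1rn and Il1r2 in the same neutrophils and TAMs, except for Dusp1 in neutrophils at 0.56.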

How the data were processed

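Live CD45+ cells of 10 tumors were profiled by 10x Genomics 3′ sequencing with antibody hashtags. Per the labels and the study's methods, reads were counted with Cell Ranger 7.1.0 on an mm10 reference, introns included, and cells were filtered, integrated and clustered in Seurat 5.0.3. The deposited expression values are natural log values of 1 plus UMIs per 10000. The deposited cell table holds UMI and gene counts and the percent of mitochondrial UMIs per cell, with the cluster names the authors gave. Doublets were treated by the authors, who kept cells with 1 hashtag.

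All values above 0 came out as whole UMIs (100%, tolerance 0.01). Deposited values were returned to the linear scale and averaged per tumor and class over at least 10 cells. Log2(mean + 0.1) of genes with a mean of at least 0.2 was fitted with limma 3.58.1 (trend, robust, R 4.3.3), without a block, and adjusted by Benjamini-Hochberg over all genes tested at 0.05. UMI sums were fitted with edgeR 4.0.16 (quasi-likelihood, TMM) and DESeq2 1.42.0 as alternatives. In tests on simulated counts limma made more false calls than edgeR where GC tumors had few cells, so edgeR values stand beside limma calls within classes. No edgeR fit was made with at least 5 cells per tumor or between classes. Classes joined the authors' clusters. Single values were tested by exact two-sided permutation over tumors. The labels do not say whether tumors came from separate experiments, so p-values measure only the spread between these tumors.

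The 10 members and the gene lists were chosen with earlier results of these data known. All members are named, the called genes of the pathway list (at most the 8 with the largest log2 change), the glucocorticoid genes, and the 5 genes most like each of 4 members. Eosinophils without mast cell marker cells and lymphocytes without γδ T cells were alternatives chosen after seeing the data. Replicate numbers follow the hashtags and only name tumors. The hashtag libraries were not analysed here beyond the tumor assignment. Promoters are from the RefSeq table of GRCm38.p6.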

Additional observations from a re-analysis of the deposited data

Results flagged for a closer look

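In 3 of the 88 groups of 4 or 5 tumors examined, 1 tumor stood far from the others, and chance alone gives this in about 1 in 20 groups. Each was a gene at 0 in all other tumors of the group. Il18 was 0.0992 UMIs per 10000 in eosinophils of control replicate 3 and 0.0763 in lymphocytes of GC replicate 2, and Nlrp3 was 0.0508 in lymphocytes of GC replicate 3. These values rest on very few UMIs.

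The GC difference was not the same in eosinophils and neutrophils for 3 members in the fit with 1 GC tumor. The eosinophil difference minus the neutrophil difference was -6.57 for Il1r2, -2.60 for Il1b and -3.50 for Casp4 on the log2 scale (limma adjusted p = 0.0088, 0.0414 and 0.0362). Il1r2 and Casp4 had 0 UMIs in that tumor, so the size of these 2 values is set by the pseudocount. With at least 5 cells per tumor, which gave 3 GC tumors, the values were -3.67, -2.47 and -1.62, and 0 members were called by limma. An unadjusted limma p under 0.05 was found for 4 of 9 members, and for 1280 of all 6136 genes tested.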

How the results depend on the processing

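The counts of members called depended on the test more than on the pseudocount or scaling. Over all CD45+ cells 1 member was called, against 0 with edgeR or DESeq2 and 2 with the mean of log values. In edgeR and DESeq2 each, 5 of 9 members had an unadjusted p under 0.05, as did 1628 and 1830 of all 6471 genes. With limma and a mean of at least 0.5 the count was 0 (1 at an unadjusted p under 0.05, as were 967 of 3872 genes). Only 6 members were tested there, and Il1a was under that filter. A higher filter takes members of low level out of the test, so a lower count with it does not show that they failed. In neutrophils 2 became 1 with edgeR. In TAMs 5 became 3 with edgeR or DESeq2 and 2 without a filter on low values. In monocytes 5 became 2 with edgeR or DESeq2, and 3 with a mean of at least 0.5 or in Monocytes 1 alone. In eosinophils 5 became 3 with DESeq2, and 3 with at least 5 cells and no mast cell marker cells. In lymphocytes 4 became 1 with a mean of at least 0.5, where 2 members were tested against 6 in the reported fit. The lymphocyte count was 2 with at least 5 cells, with the CD8 clusters 1 to 3 alone, or with at least 5 cells and no γδ T cells. DCs gave 2 with at least 5 cells, and no other setting could be run. The difference between lymphocytes and neutrophils went from 0 to 1, and that between eosinophils and neutrophils from 3 to 0, with at least 5 cells. Of single members over all CD45+ cells, 3 passed the exact test and 5 with equal weight per class, which left only lymphocytes with 5 cells in every tumor, where Il18 at 0.0399 and Nlrp3 at -0.47 turned sign. The ratio of Il1rn to Il1b over all CD45+ cells was -0.90 from mean levels and -0.25 relative to class makeup, an alternative chosen after seeing the data.

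With each tumor left out in turn, the counts ran from 1 to 2 in all CD45+ cells, 0 to 2 in neutrophils (0 without GC replicate 3), 3 to 5 in TAMs, 4 to 7 in monocytes, 5 to 6 in eosinophils and 3 to 4 in lymphocytes. Single members called ran from 1 to 4. The ratio of Il1rn to Il1b ran from -1.26 to -0.81 in all CD45+ cells, -0.58 to -0.32 in neutrophils and -1.02 to -0.63 in TAMs, and that of Il1r2 to Il1r1 from -0.73 to 0.45. With median-of-ratios scaling, calls over all genes in all CD45+ cells were 222 higher and 163 lower, against 151 and 247 in the reported fit, and in TAMs 564 and 618 against 411 and 859. No member changed sign under that scaling with a call in either fit. At least 20 cells per tumor could be run only in lymphocytes. No paired analysis was possible because the replicate numbers name hashtags and do not tie a control tumor to a GC tumor.

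GC myeloid classes of 10 to 19 cells per tumor, and for monocytes and eosinophils 1 GC tumor, set the precision of every within-class value.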
